A study of Mus with 6 samples.

Results

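The genes described here encode the proteins that stand closest to the BCR-ABL kinase in chronic myeloid leukaemia (CML), a set of 10 genes: Abl1, Bcr, Crkl, Grb2, Gab2, Sos1, Ptpn11, Jak2, Stat5a and Stat5b. Every probe whose platform annotation names one of them was taken, which gave 26 of the 45281 probes on the array for 10 of its 19057 named genes. RNA came from leukaemic cells of C57BL/6 mice with CML induced by BCR-ABL p210, taken 14 days after bone marrow transplantation. Cells of both groups were sorted for green fluorescence, absence of lineage markers, and presence of Sca-1 and c-Kit (LSK cells, a fraction enriched for leukaemia stem cells). One group was wild type (WT) and the other Klf4-deficient, both carrying BCR-ABL, with 3 arrays each and no group without leukaemia. The sources used here do not say how Klf4 was deleted, whether cells of the host contributed, or whether each array of a group held a separate mouse. The p-values hence reflect the spread among these arrays, part of which may be technical.

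BCR-ABL is a fusion of the BCR scaffold with the ABL1 tyrosine kinase that is active without a ligand. The adaptor GRB2 binds a phosphorylated tyrosine in the BCR portion and brings in SOS1, which loads RAS with GTP, and the scaffold GAB2, which recruits the phosphatase SHP2 (encoded by Ptpn11) and PI3 kinase. CRKL is an adaptor that is among the most heavily phosphorylated substrates of BCR-ABL in CML cells, and STAT5A and STAT5B are transcription factors that the kinase activates and that JAK2 activates downstream of cytokine receptors.

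In these cells Grb2 was the 1 gene of the set detected on every array, Abl1 was detected on none, and the others were detected on some arrays of 1 or both groups. With values at background set equal, 1 Gab2 probe was the only tested probe of the set whose groups did not overlap; it was above background on all WT arrays and on 1 Klf4-deficient array. No probe of the set passed the test over all probes. The deposited intensities are background-subtracted, with a lowest value of -31 on every array. A value at or below 32, close in size to that lowest value and referred to as the floor, was treated as not above background, set to 32 and not ordered. Of the 26 probes, 13 (50%) exceeded the floor on at least 1 array and were tested, against 40.3% of all probes. Of the 13, 6 did so on exactly 1 array and 1, the Grb2 probe, on all 6. These 13 had to be above the floor somewhere to enter the test and are not all the probes of the genes. The dimmest of the tested probes, 1 of Gab2, peaked at 35.9, and the brightest of the probes left out, 1 of Ptpn11, at 31.9.

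Facts of the whole series that touch these values were few. Between 7082 and 7214 probes per array were above the floor. Over the 18270 probes tested, the Pearson r of WT replicate 3 with each of the other 5 arrays was 0.29 to 0.30, while those 5 reached 0.66 to 0.72 among themselves. The differences of member probes are therefore also given without that array, in the text or in the plot of differences, and those of other genes only in part. Klf4 had 3 probes and 1 value above the floor, 51.9 in WT replicate 2, so the deletion could not be checked at the transcript level. Its probe ILMN_1241903 gave 8.1, 3.2 and 6.6 in the WT arrays and -0.3, -5.9 and -2.5 in the Klf4-deficient ones. The groups did not overlap there, but wholly below the floor, and 6.23% of all probes were lower without overlap. Where the Klf4 probes lie with respect to the deleted segment was not analysed here. Of the gate genes, Ly6a (Sca-1) had no named probe, and the brightest probe of Kit gave 11.5, 17.4 and 381.5 in the WT arrays, against 118.1, 7.3 and 63.1 in the Klf4-deficient ones, which is above the floor on 3 of 6. Another Kit probe exceeded the floor in WT replicate 2 (258.5) and Klf4-deficient replicate 1 (67.6) only, and the last in WT replicate 3 only (35.4). Gata2, a transcription factor of stem and progenitor cells, read 698.9 and 534.7 in WT replicates 1 and 2 and 346.2 to 601.6 in Klf4-deficient arrays, but -1.9 in WT replicate 3.

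The fusion partners gave almost no signal. Abl1 had 4 probes, and on all 6 arrays all 4 lay between -15.2 and 2.7, far under the floor. Bcr had 3 probes, of which 2 lay between -13.4 and 7.4 on all arrays. The remaining Bcr probe, ILMN_2691538, measured 6, -2.9 and -4.5 for WT replicates 1 to 3 and -5.3, 0 and 234.6 for the Klf4-deficient replicates. The group difference of this probe thus rested on Klf4-deficient replicate 3 alone, and the other probes of Bcr read 4 and -0.8 on that array. The difference was 0.96 ± 0.85 (log2 ± SE over 3 arrays per group, limma adjusted p = 0.71, 95% interval -1.20 to 3.12). The labels do not say which species' BCR-ABL sequence was used, and whether these mouse probes can detect the fusion transcript was not analysed here, so low Abl1 and Bcr values carry no measurement of BCR-ABL itself.

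**Figure D1:**
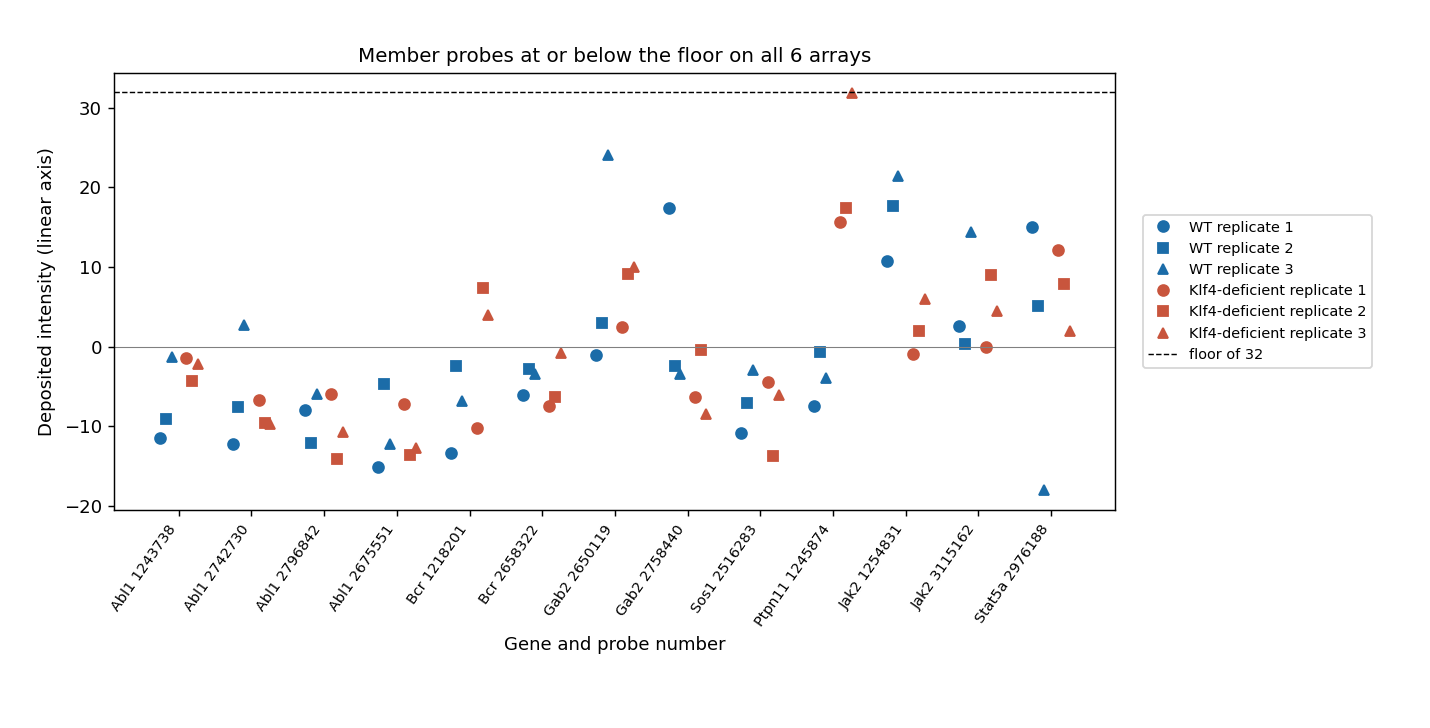
Deposited intensity on a linear axis for the 13 member probes at or below the floor of 32 (dashed line) on all 6 arrays, with WT arrays in blue and Klf4-deficient arrays in red and 1 symbol per replicate. All 4 Abl1 probes lie between -15.2 and 2.7, and the Ptpn11 probe ILMN_1245874 comes closest to the floor, with 31.9 in Klf4-deficient replicate 3.

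Among the adaptors that bind the fusion protein directly, Grb2 was the best measured. Its probe ILMN_2995537 gave 127.5, 101.3 and 129.6 across the WT arrays and 195.2, 133.8 and 80.1 across those lacking Klf4. The WT arrays lay within the range of the Klf4-deficient arrays, which held both the highest and the lowest value. The difference was 0.11 ± 0.37 (log2 ± SE over 3 arrays per group, limma adjusted p = 0.89). The 95% interval was -0.84 to 1.05, and changes within it in either direction were not excluded. The difference was 0.17 without WT replicate 3. It turned to -0.01 without WT replicate 2 and to -0.20 without Klf4-deficient replicate 1.

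The Grb2 profile over the 6 arrays was set against 831 named probes that were also above the floor on all arrays. The highest Pearson r on log2 values were those of Tle4, a transcriptional corepressor (0.94), Mcm6, a subunit of the replicative helicase (0.87), and Bzw2 (0.84). These are the highest of many correlations over only 6 arrays and carry no test. Tle4 gave 196.9, 200.9 and 216.7 in the WT arrays, against 382.4, 252.5 and 87.5 in the Klf4-deficient ones, and so shared with Grb2 the highest value in Klf4-deficient replicate 1 and the lowest in Klf4-deficient replicate 3.

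Crkl had 1 probe, ILMN_2621338, which measured 100.2, -8.7 and 7.1 for WT replicates 1 to 3 and -11.3, -1.6 and -9.8 for the Klf4-deficient replicates. WT replicate 1 was the only array above the floor. The difference of -0.55 ± 0.50 (log2 ± SE over 3 arrays per group, limma adjusted p = 0.71, 95% interval -1.82 to 0.73), or -0.82 without WT replicate 3, rested on WT replicate 1, and without it the probe was at the floor on all remaining arrays.

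Gab2, the scaffold that links GRB2 to SHP2 and PI3 kinase, was the 1 member whose groups did not overlap above the floor. Its brightest probe, ILMN_2833573, gave 114.4, 53.9 and 106.6 across the WT arrays and 12, 24.9 and 46.3 across those lacking Klf4. All 3 WT arrays were above the floor and above every Klf4-deficient array, of which only replicate 3 exceeded the floor. The group means of the floored log2 values were 6.44 in WT and 5.18 in Klf4-deficient arrays, with SDs of 0.60 and 0.31. The difference of -1.26 ± 0.37 (log2 ± SE over 3 arrays per group) corresponds to 2.40-fold lower in Klf4-deficient arrays, a size that depends on the floor because 2 of those arrays were set to it. It had the smallest unadjusted p of the member probes, 0.018 in limma, and did not pass the test over all probes (adjusted p = 0.71). Under 8 of 15 alternative settings the unadjusted p was above 0.05, up to 0.23 with trend and robust variances. The difference was -1.12 without WT replicate 3, with an unadjusted p of 0.056.

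The other 3 Gab2 probes did not show that separation. Probe ILMN_2714539 gave 35.9, -2 and 17.8 in the WT arrays, against 0.6, 22.1 and 4.1 in the Klf4-deficient ones, so 1 WT array was just above the floor. Its difference was -0.06 ± 0.16 (log2 ± SE over 3 arrays per group, limma adjusted p = 0.87). Probes ILMN_2650119 and ILMN_2758440 stayed below the floor, with 24.1 and 17.4 as their highest values, both in WT arrays. When the log2 values of the 4 probes were averaged, the Gab2 difference was -0.33 ± 0.14 (limma adjusted p = 0.74). That adjustment was over all genes tested, with probes without a symbol or with several entered singly. Annotation places all 4 on the same transcript record, and which of them reports Gab2 most accurately was not tested.

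**Figure D2:**
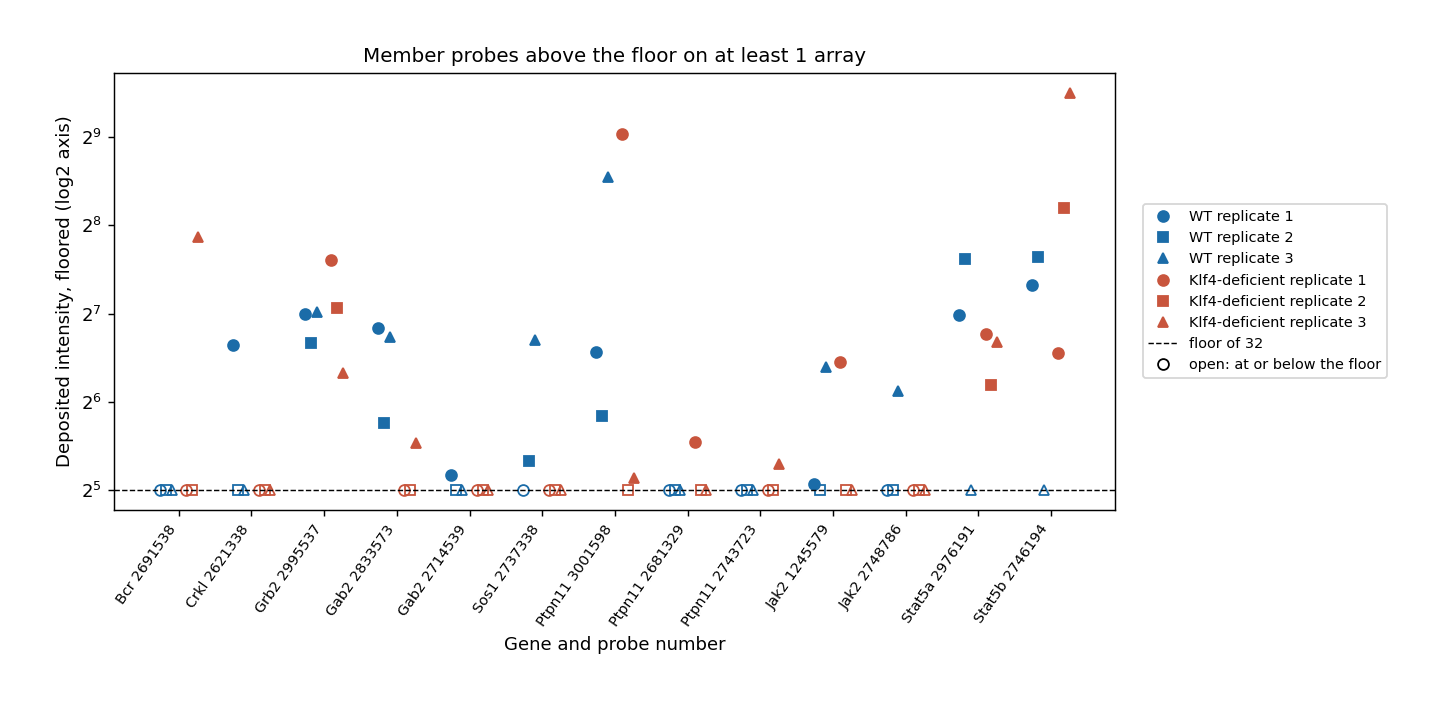
Deposited intensity after the floor of 32 (dashed line), on a log2 axis, for the 13 member probes above the floor on at least 1 array, with 1 symbol per array, WT in blue and Klf4-deficient in red, and open symbols for values at or below the floor. The groups separate for Gab2 probe ILMN_2833573, while the single high values of Bcr (234.6) and Crkl (100.2) come from 1 array each.

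The enzymes recruited through GRB2 and GAB2 showed large spread within groups. Sos1, the RAS guanine nucleotide exchange factor, measured 14.9, 40 and 103.9 for WT replicates 1 to 3 and 28.2, 14.2 and 18.6 for the Klf4-deficient replicates on probe ILMN_2737338. It was above the floor on WT replicates 2 and 3 and on no Klf4-deficient array. The difference was -0.67 ± 0.48 (log2 ± SE over 3 arrays per group, limma adjusted p = 0.71, 95% interval -1.89 to 0.54). It shrank to -0.16 once WT replicate 3, the array with the highest value, was left out. The second Sos1 probe, ILMN_2516283, lay between -13.7 and -3 on all arrays.

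Ptpn11, which encodes SHP2, had 4 probes, and the differences of those tested had both signs. The brightest, ILMN_3001598, gave 94.6, 57 and 374.9 across the WT arrays and 526.7, 29.1 and 35.1 across those lacking Klf4. Both groups held 1 array several fold above the rest, WT replicate 3 and Klf4-deficient replicate 1, and the floored values spanned 6.58-fold within WT and 16.5-fold within Klf4-deficient arrays. The difference was -0.59 ± 1.37 (log2 ± SE over 3 arrays per group, limma adjusted p = 0.84, 95% interval -4.06 to 2.88), the widest interval among the member probes, and it turned to 0.19 without WT replicate 3.

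The dimmer Ptpn11 probes were higher in Klf4-deficient arrays on average, at intensities mostly under the floor. Probe ILMN_2743723 gave -0.9, 13.4 and 7.2 in the WT arrays, against 25.1, 25.5 and 39.1 in the Klf4-deficient ones. Probe ILMN_1245874 measured -7.5, -0.7 and -4 for WT replicates 1 to 3 and 15.6, 17.4 and 31.9 for the Klf4-deficient replicates. On both, every Klf4-deficient value was above every WT value, but 1 of these 12 values exceeded the floor. The floored difference of ILMN_2743723 was 0.10 ± 0.17 (log2 ± SE over 3 arrays per group, limma adjusted p = 0.79), and ILMN_1245874 was not tested. The size on ILMN_2743723 depends on the floor. With a floor of 16 it was 0.87 ± 0.25 (limma unadjusted p = 0.017, adjusted p = 0.76). With an offset of 16 it was 1.06 ± 0.80 (limma adjusted p = 0.92). The last probe, ILMN_2681329, gave -18.1, 14.3 and -8.4 across the WT arrays and 46.5, 1.2 and -8.6 across those lacking Klf4 (0.18 ± 0.22, adjusted p = 0.72). The groups overlapped there, and Klf4-deficient replicate 1 was the only array above the floor, as it was the highest on the brightest probe.

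Jak2 transcript was at the edge of detection. Of its 4 probes, ILMN_1245579 gave 33.4, 2.2 and 83.8 in the WT arrays, against 87.1, 0.3 and 19.1 in the Klf4-deficient ones. The groups overlapped fully, with WT replicate 3 and Klf4-deficient replicate 1 high, the same arrays as on the brightest Ptpn11 probe. The difference was -0.002 ± 0.60 (log2 ± SE over 3 arrays per group, limma adjusted p = 0.998), with a 95% interval of -1.52 to 1.51, and 0.45 without WT replicate 3.

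Probe ILMN_2748786 of Jak2 measured 24.2, 6.5 and 69.7 for WT replicates 1 to 3 and 7.8, 14.3 and 9.5 for the Klf4-deficient replicates, so its difference of -0.37 ± 0.36 (limma adjusted p = 0.71) came from WT replicate 3 alone. Without that array the probe was at the floor on all remaining arrays. Probe ILMN_1254831 gave 10.7, 17.6 and 21.4 across the WT arrays and -1, 1.9 and 6 across those lacking Klf4, with no overlap but wholly below the floor. Probe ILMN_3115162, annotated to another Jak2 transcript record than the other 3, stayed between 0 and 14.4.

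The transcription factors at the end of the chain, Stat5a and Stat5b, shared a low value in WT replicate 3. Stat5a probe ILMN_2976191 gave 126.6, 196.8 and 23.7 in the WT arrays, against 108.8, 73.2 and 102.2 in the Klf4-deficient ones. With all arrays the difference was 0.01 ± 0.72 (log2 ± SE over 3 arrays per group, limma adjusted p = 0.99, 95% interval -1.82 to 1.84). Without WT replicate 3 it was -0.76 ± 0.33, since the remaining WT arrays both lay above all Klf4-deficient arrays, and it did not pass the test there either (adjusted p = 0.84). The second Stat5a probe, ILMN_2976188, stayed below the floor, with a highest value of 15 and its lowest value, -18, again in WT replicate 3.

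Stat5b had 1 probe, ILMN_2746194, which measured 160.2, 199.6 and -0.1 for WT replicates 1 to 3 and 93.9, 293.3 and 727.6 for the Klf4-deficient replicates. WT replicates 1 and 2 lay inside the Klf4-deficient range, whose top value came from Klf4-deficient replicate 3. The difference was 1.43 ± 1.05 (log2 ± SE over 3 arrays per group, limma adjusted p = 0.71), with a 95% interval of -1.24 to 4.11. It was 0.60 without WT replicate 3.

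Thus WT replicate 3 was below the floor for both STAT5 genes, while on the brightest Ptpn11 probe, on both tested Jak2 probes and on Sos1 it was the highest WT array. On that array the 7 neutrophil lineage markers with a probe summed to 7545.1, against 2065.9 to 3339.3 in the other WT arrays and 1987 to 2953.8 in Klf4-deficient arrays, led by Mpo (myeloperoxidase) at 7153.2, while the granule protein gene S100a9 was at 2.9. The 6 erythroid markers with a probe summed to 1425.8 to 4929.6 in WT, lowest in WT replicate 3, and to 4078.9 to 5049.6 in Klf4-deficient arrays, with Epor below the floor throughout. Within that list Alas2, the first enzyme of haem synthesis in red cells, was at 8.8, 26.1 and -15 in WT and at 172, 114.1 and 160.7 in Klf4-deficient arrays, an unadjusted p of 0.00013 in limma (adjusted p = 0.59). The 7 T and NK cell markers summed to 113.9 to 340.6 in WT, highest in WT replicate 3, and to 309.6 to 377.2 in Klf4-deficient arrays, with Klrb1c below the floor throughout. Of the 6 tested markers of that list, 3 had a positive log2 difference (Klf4-deficient against WT) and 3 a negative one. The negative ones were Cd3d (-0.94), Cd3e (-0.27) and Cd4 (-0.11), each above the floor in WT replicate 3 alone. Among the 3 positive ones was Thy1, a surface glycoprotein. Its brighter probe was at 24.4, 26 and -7 in WT and at 113, 187.2 and 146 in Klf4-deficient arrays. Its unadjusted p was 0.0002 in limma (adjusted p = 0.59), while the second probe of Thy1 differed by 0.04. Alas2 and Thy1 were picked after their values were seen, and both had smaller p-values than any member probe. The part of such cells in the values above was not tested. In sorted bulk RNA, fewer cells that express a gene and less RNA of it per cell cannot be told apart.

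Counted over the 13 tested member probes, 6 (background over all probes tested 45.8%) were higher in Klf4-deficient arrays and 7 (background 54.2%) lower, and 0 passed an adjusted p of 0.05. Over all 18270 probes 0 passed as well, or 0%. At an unadjusted p under 0.05 stood 1 of the 13 (the Gab2 probe), against 2.03% of all probes tested. The groups did not overlap on that same probe, 1 of 13, against 3.09% of all probes tested. Among all 26 probes without the floor, the deposited values of the groups did not overlap on 4, namely Gab2 ILMN_2833573 and Jak2 ILMN_1254831 (lower) and Ptpn11 ILMN_2743723 and ILMN_1245874 (higher), or 15.4%, against 10.9% of all 45281 probes (6.23% lower and 4.64% higher). The median difference was -0.002 (log2) over the 13 probes and -0.05 over all probes tested, and 0.13 and 0.06 without WT replicate 3. The median SE of the 13 was 0.48, close to the 0.52 of all probes tested, with a range of 0.16 to 1.37. The smallest SEs belonged to probes with 1 array above the floor, where the spread is hidden.

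**Figure D3:**
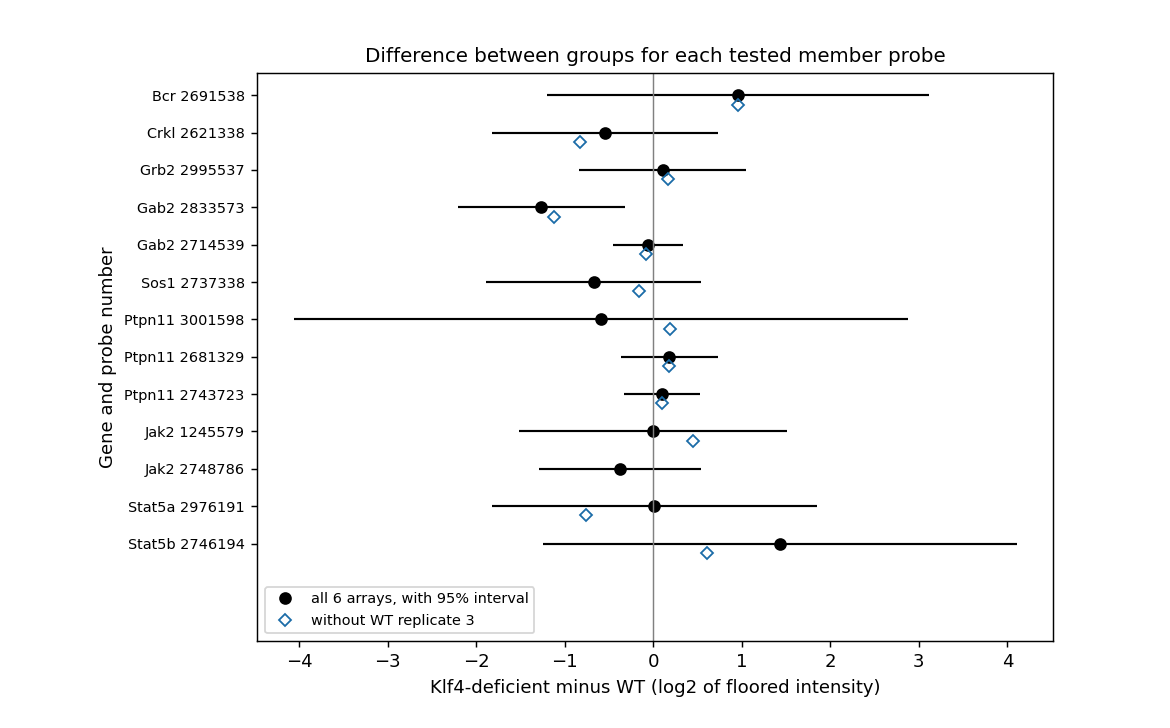
Difference between Klf4-deficient and WT arrays in log2 of the floored intensity for each of the 13 tested member probes, as black points with 95% limma intervals (n = 3 per group), and blue diamonds for the value without WT replicate 3 (none for Jak2 ILMN_2748786, which is then at the floor on all arrays). The interval excludes 0 for Gab2 ILMN_2833573 only (-2.21 to -0.32, unadjusted), and Stat5a moves from 0.01 to -0.76 without that array.

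The wider pathway was described from 5 lists of 98 further genes, each gene by its brightest probe. Of these, 87 were named on the array and 59 entered the test. The Klf4-deficient arrays were higher for 33 (background over all probes tested 45.8%) and lower for 26 (background 54.2%), with 0 called. The median difference was 0.07 (log2), against -0.05 over all probes tested. The same background is meant for the counts of each list below. It is over all probes tested, whereas each list gene entered by its brightest probe only. No list was tested as a set. At an unadjusted p under 0.05 stood 2 of the 59, Vav1 and Il6ra, against the 2.03% of all probes tested.

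Among the other SRC family kinases and adaptors next to BCR-ABL, 16 of 25 genes were tested, 10 higher and 6 lower (median 0.21). Vav1, a guanine nucleotide exchange factor of blood cells, was above the floor on all 6 arrays. It gave 211.9, 321.9 and 131.1 across the WT arrays and 43.6, 33.8 and 87.8 across those lacking Klf4, with every Klf4-deficient array below every WT array. This was 4.10-fold lower (-2.04 ± 0.51 log2 ± SE over 3 arrays per group), with an unadjusted p of 0.0094 and an adjusted p of 0.71 in limma, and -2.37 without WT replicate 3. Abi1, an ABL-interacting adaptor of actin regulation, gave -2.6, 43.6 and -6.7 in the WT arrays, against 34.1, 167.2 and 387.4 in the Klf4-deficient ones (1.88 ± 0.92, adjusted p = 0.71), with 1 WT array inside the Klf4-deficient range. Its other probes differed by 1.11 ± 0.53 and -0.34 ± 0.80. Vav1 had 1 probe.

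Among 16 cytokine and growth factor receptor genes, 12 were tested, 4 higher and 8 lower (median -0.16, and 0.12 without WT replicate 3). Il6ra, the ligand-binding chain of the interleukin-6 receptor, which signals through JAK kinases to STAT3, measured 72.7, 295.5 and 95.3 for WT replicates 1 to 3 and 20.2, 23.3 and 25.7 for the Klf4-deficient replicates. All WT arrays were above the floor and all Klf4-deficient arrays at it. On floored values Il6ra on this probe was estimated as 3.97-fold lower (-1.99 ± 0.56, unadjusted p = 0.015, limma adjusted p = 0.71), a size that depends on the floor. Of the other 2 Il6ra probes, ILMN_1216057 peaked at 36.1 and differed by -0.06 ± 0.16, and ILMN_2706430 stayed below the floor. Csf2rb2, a beta chain of the mouse interleukin-3 receptor, gave 32, 14.9 and 3.9 across the WT arrays and 14.9, 93.9 and 59.5 across those lacking Klf4 (0.82 ± 0.42, adjusted p = 0.71).

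The remaining lists held no gene at an unadjusted p under 0.05. Of 17 genes of the RAS to ERK cascade, 9 were tested, 6 higher and 3 lower (median 0.14), and those with the smallest p were the RAF family kinase Araf (1.65 ± 0.86, SE, and -0.15 to 0.39 on its other 3 tested probes) and the ERK kinase gene Map2k2 (1.11 ± 0.78). Of 22 genes from PI3 kinase to AKT and mTOR, 11 were tested, 5 higher and 6 lower (median -0.22). Its leading genes, the mTOR complex component Rptor (1.01 ± 0.89) and the PI3 kinase catalytic subunit Pik3cg (-0.91 ± 0.81), were each above the floor on 1 array, at 260 in Klf4-deficient replicate 2 and 211.5 in WT replicate 2. On a second tested probe each the difference had the other sign, -0.35 for Rptor and 0.19 for Pik3cg.

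Of 18 other JAK and STAT genes with their phosphatases and inhibitors, 11 were tested, 8 higher and 3 lower (median 0.14, and -0.12 without WT replicate 3). Pias1, a SUMO ligase, gave 114.9, 9.7 and 2430.7 in the WT arrays, against 4.4, 23.6 and 13.9 in the Klf4-deficient ones. Its difference of -2.70 ± 1.63 became -0.92 without WT replicate 3, and a second Pias1 probe was likewise highest in that array, at 2056.1. Stat4, a transcription factor of interleukin-12 signalling, was above the floor in WT replicate 3 alone, at 185.4 (-0.84 ± 0.75). All of the genes named from these lists had a limma adjusted p of 0.71 on their brightest probe.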

How the data were processed

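Each of the 6 samples was run on a one-colour Illumina mouse array. The authors deposited 1 linear intensity per probe and array. Per the labels' protocols, a service laboratory hybridized and scanned the arrays. The submitters' processing notes name BeadStudio, while its version and its background and normalization settings are not given in these sources. The values reached -31 and the columns have nearly the same distribution, so a background had been subtracted and the arrays put on one scale, which hides differences in total RNA. The number of arrays limits the precision.

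Here values below 32 were set to 32 and log2 was taken, without further normalization. Fold changes against floored values depend on the floor, which can shrink a difference and, on some probes, change its sign. Probes were named through the platform annotation, updated by Entrez number in RefSeq (34885 probes with 1 symbol, 18 with several, 10378 not listed). Groups came from sample titles. All probes above the floor on at least 1 array were compared, Klf4-deficient against WT, with limma 3.58.1 in R 4.3.3 (package data.table, version 1.17.8), adjusted by Benjamini-Hochberg over all of them, threshold 0.05, without a replicate block. Named genes were every probe of the 10 genes, the 2 genes per pathway list with the smallest p on their brightest probe, and the 3 probes most like the brightest member probe that was above the floor on all arrays. Klf4 was named as the targeted gene, and Kit and Ly6a as gate genes. Genes of the cell type marker lists, such as Gata2, Mpo, S100a9, Alas2 and Thy1, were named outside these rules. The members and lists were chosen with earlier results of these data known, so no list was tested as a set. The fit was tested on simulated data. No probe sequence or genome position was used.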

Additional observations from a re-analysis of the deposited data

How the results depend on the processing

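Under 17 alternative settings, 2 of them chosen after seeing the data (a floor of 16, and an offset of 16 with no filter), 0 member probes were called. Over all probes, 1 was called with no filter. When the probes of each gene were averaged, 1 gene or probe without a single symbol was called, and 0 in the other 15 alternatives. The number at an unadjusted p under 0.05 ran from 175 with trend and robust to 2217 with an offset of 16 and no filter, against 371. Among member probes that number was at most 2, against 1. It was 2 with a floor of 16 (Gab2 ILMN_2833573 and Ptpn11 ILMN_2743723) and with an offset of 16 and no filter. Titles share replicate numbers 1 to 3. Deviations from the group means correlated at 0.03 to 0.04 between arrays of the same number and at -0.03 to -0.01 between arrays of different numbers, so every array correlated best with its own number. Deviations within a group cancel out, which ties these values to each other. Their small size does not decide whether the arrays were paired. With the replicate block, 0 probes were called and the Gab2 difference on ILMN_2833573 had an adjusted p of 0.75. That Gab2 difference was -0.52 with a floor of 64 and -1.72 with a floor of 16, and over its 15 alternatives its adjusted p lay between 0.43 and 0.92 and its unadjusted p between 0.0038 and 0.23, above 0.05 in 8. The median over tested member probes was -0.20 with an offset of 16, -0.19 with a floor of 16, -0.10 with an offset of 16 and no filter, and -0.29 to 0.13 when 1 array was left out. Of the 13 tested probes, 4 changed sign in at least 1 alternative and the cause was not tested. With a floor of 64, Jak2 ILMN_1245579 was 0.019 and Stat5a ILMN_2976191 was -0.32. With 1 array left out, Jak2 ILMN_1245579 ran from -0.48 to 0.45, Stat5a from -0.76 to 0.55, Grb2 from -0.20 to 0.44 and Ptpn11 ILMN_3001598 from -1.92 to 0.19. Signals at or near background limited most of these values, and differences within the intervals given were not excluded.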
